A study of Homo sapiens with 16 samples.

Results

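Selective autophagy delivers tagged cargo (damaged mitochondria, protein aggregates, invading bacteria) to the lysosome. Its receptors bind ubiquitin on the cargo and, through a short LC3-interacting motif, the ubiquitin-like proteins of the LC3 and GABARAP families on the growing membrane. The kinase ULK1 starts the process and WIPI proteins read the lipid phosphatidylinositol 3-phosphate on the forming membrane. Several receptors also act in signalling from the tumour necrosis factor (TNF) receptor, where optineurin binds ubiquitin chains and p62 brings signalling proteins together. The genes described here are 10 of 28502 listed symbols, taken by name: the receptors OPTN, SQSTM1, NBR1 and CALCOCO2, the LC3 and GABARAP genes MAP1LC3B, GABARAP, GABARAPL1 and GABARAPL2, and ULK1 and WIPI1. All 10 had a mean of at least 1 FPKM (fragments per kilobase of transcript, scaled to library size), and each had its symbol to itself in the tables, so all 10 entered the test among 11845 loci.

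RNA was sequenced from HCT116, a long-established cell line from a human colorectal carcinoma. The cells had received siRNA against EZH1 (siEZH1), siRNA against UXT (siUXT) or a control labelled NC. EZH1 encodes a Polycomb histone methyltransferase and UXT a small prefoldin-like protein, and the study's title ties both to NF-kB target genes. Each transfection was given TNF or PBS, which made 6 conditions with 1 library each, and no condition had a replicate. The siRNA sequences, the TNF dose and time, and whether the PBS and TNF cells of a transfection came from 1 dish were not stated. The other 10 samples of the series are chromatin samples, which were not analysed here.

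The targeted genes were lower in their own knockdowns, EZH1 by little. For UXT, NC gave 62.2 (PBS) and 59.6 FPKM (TNF) and siUXT gave 27.7 and 24.6, while EZH1 was at 5.45 and 5.12 FPKM in NC and at 4.05 and 4.14 in siEZH1; neither passed limma's adjusted test (adjusted p = 0.69 and 0.64). NFKBIA, the feedback inhibitor of NF-kB, was at 22.8 to 28.2 FPKM in the PBS libraries and 261 to 379 in the TNF libraries. Of 12 epithelial and colorectal markers, 8 had a mean of at least 1 FPKM, among them EPCAM, KRT8, KRT18 and CDH1, while LGR5 and CEACAM5 were listed at 0 in all libraries. Of 12 leukocyte, endothelial and fibroblast markers only COL1A1 did, and PTPRC, CD3E, CD14 and DCN were listed at 0 throughout; the summed level of these 12 was 5.80 to 8.39 FPKM under PBS and 8.23 to 8.89 under TNF, and its part in the results was not tested. The read depth is not given, but steps among low values put NC TNF and siEZH1 TNF at 0.719 and 0.720 of the depth of NC PBS and the others at 0.949 to 1.02. The siUXT PBS library stood apart: 16.4% of loci were at least 1.5-fold lower there than in NC PBS, against 3.06% for siUXT TNF below NC TNF, and the siUXT differences of the 10 genes are given with and without it.

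The 10 genes covered a wide range of levels in these cells. GABARAP, one of the proteins conjugated to the autophagosome membrane, was the most abundant of them, with a mean of 206 FPKM, and lay between 170.0 (siEZH1 PBS) and 243 FPKM (siUXT PBS). SQSTM1, which encodes the receptor p62, followed with a mean of 121 FPKM and a range of 65.3 to 192. These means lay above 97.3% and 95.3% of the loci tested. GABARAPL2, MAP1LC3B and GABARAPL1 had means of 49.1, 34.9 and 28.7 FPKM, CALCOCO2 and NBR1 of 21.7 and 17.6. The lowest were OPTN at 10.1, WIPI1 at 8.04 and ULK1 at 7.80 FPKM. In this order the ranges of neighbours over the 6 libraries overlapped for every pair except SQSTM1 and GABARAPL2, whose highest library was at 56.7 FPKM. Of the other LC3 genes, MAP1LC3A was listed at 0 in every library and MAP1LC3C reached at most 0.318 FPKM. MAP1LC3B2, a near-identical copy of MAP1LC3B, was at 2.83 FPKM in NC PBS, 0.167 in siEZH1 PBS and 0 in the rest, so the split of fragments between these copies is uncertain.

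**Figure D1:**
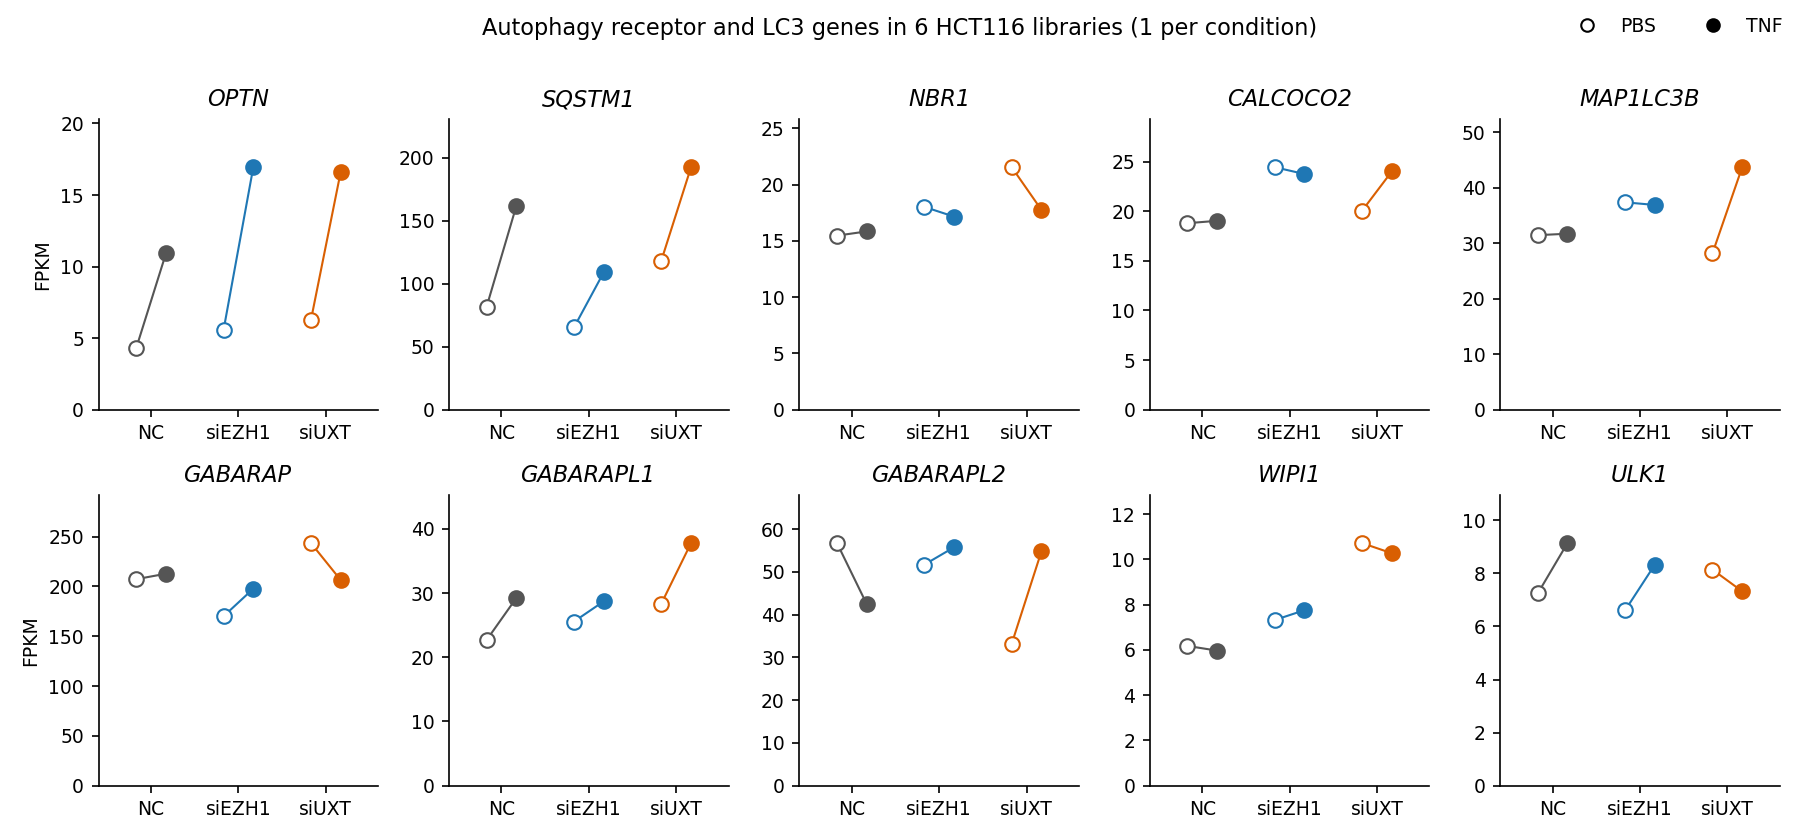
FPKM (vertical axis, from 0) of each of the 10 genes in the 6 libraries, 1 library per condition; open circles are PBS, filled circles TNF, and a line joins the 2 libraries of a transfection. OPTN and SQSTM1 are higher under TNF in all 3 transfections, WIPI1 is highest in both siUXT libraries, and GABARAPL2 is lowest in siUXT PBS at 33.2 FPKM.

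The 10 genes were chosen with earlier results of these data known, in which OPTN was called under TNF. The first question was whether TNF changed these genes, taken over the 3 transfections. OPTN, the optineurin receptor, rose in each. It was at 4.31, 5.59 and 6.27 FPKM in the PBS libraries of NC, siEZH1 and siUXT, and at 10.9, 16.9 and 16.6 FPKM in their TNF libraries. All 3 TNF libraries lay above all 3 PBS libraries, and the rise was 2.53-fold in NC, 3.03-fold in siEZH1 and 2.65-fold in siUXT. On the log2(FPKM + 1) scale, which understates changes of low values, the mean rise was 1.30 with an SD of 0.14 over the 3 transfections (95% interval 0.92 to 1.68). In limma's additive model of transfection and treatment, with Benjamini-Hochberg adjustment over all loci, OPTN had an adjusted p of 0.035 and was higher in 3 of 3 pairs. It was the only 1 of the 10 that passed 0.05, where 0.405% of all loci were called higher, 0.00844% lower and 0.414% in either direction. At an unadjusted p under 0.05 limma gave OPTN and SQSTM1, and 3.96% of all loci. By p it ranked 42 among all loci, 49 of which were called, so it stood near the edge. Its adjusted p ranged from 0.0010 to 0.146 over 15 alternative settings, and 3 of them ended the call: testing also loci under 1 FPKM (limma, 0.146, with 0.13% of loci called), leaving out the transfection terms (0.059, with 0.456% called) and leaving out the siEZH1 TNF library (0.051, with 1.05% called). Without siUXT PBS, a fit that leaves 1 siUXT library, the mean log2 rise was 1.31. In bulk RNA a change per cell and a change in the mix of cells cannot be told apart.

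The sequence just before the OPTN start is shown because it holds the letters of the kappaB consensus, the site that NF-kB binds and that TNF-induced genes often carry. RefSeq promoter entries (build GRCh38.p14) matched all 10 genes, and the 250 bases upstream of each start were searched on both strands for 4 motifs: the kappaB consensus, AP-1 (TGANTCA), the E-box core of the lysosomal CLEAR element (CACGTG) and the antioxidant response element that NRF2 binds (TGACNNNGC). Capitals mark a match. The OPTN window is chr10:13099832-13100081 on the plus strand, and the 2 kappaB matches, 1 on each strand, overlap and begin 12 and 11 bases before the start. GABARAPL2 (chr16:75566129-75566378, plus strand) is the other member with a match, 131 bases before its start, and SQSTM1 (chr5:179806143-179806392, plus strand) is shown as the other gene with large TNF differences.
OPTN: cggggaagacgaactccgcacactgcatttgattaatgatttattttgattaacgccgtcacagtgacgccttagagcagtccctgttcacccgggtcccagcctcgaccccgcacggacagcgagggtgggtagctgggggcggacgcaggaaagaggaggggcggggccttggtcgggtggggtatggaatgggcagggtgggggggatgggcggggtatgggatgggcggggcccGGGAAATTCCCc
GABARAPL2: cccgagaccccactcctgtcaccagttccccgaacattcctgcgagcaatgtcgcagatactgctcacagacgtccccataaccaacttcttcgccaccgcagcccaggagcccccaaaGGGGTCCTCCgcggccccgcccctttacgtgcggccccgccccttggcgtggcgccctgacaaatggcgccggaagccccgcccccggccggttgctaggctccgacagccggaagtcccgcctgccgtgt
SQSTM1: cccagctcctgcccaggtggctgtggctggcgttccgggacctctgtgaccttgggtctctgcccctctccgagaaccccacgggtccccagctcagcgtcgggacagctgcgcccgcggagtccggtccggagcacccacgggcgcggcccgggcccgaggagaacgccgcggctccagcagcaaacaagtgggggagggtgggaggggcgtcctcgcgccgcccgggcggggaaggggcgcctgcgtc
The kappaB letters were in 9.57% of all 27305 promoter windows, in 11.9% of the 9705 windows of tested loci, and in 20 of 44 windows (45.5%) of loci called higher under TNF, which include OPTN. None of the 4 motifs was found in the SQSTM1 window, which says only that these letters are not in these 250 bases. The antioxidant element, in 11.0% of all windows, was found in CALCOCO2 and MAP1LC3B, and neither AP-1 nor the E-box letters were in the window of any of the 10. Such a match is a description of letters and does not show binding.

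SQSTM1 differed in the same direction as OPTN in every pair but did not pass the test. It was at 81.7, 65.3 and 118 FPKM under PBS in NC, siEZH1 and siUXT and at 162, 109 and 192 FPKM under TNF. Within each transfection the TNF library was higher, by 1.98-fold, 1.67-fold and 1.63-fold, but the groups overlapped, since siEZH1 TNF lay below siUXT PBS. The mean log2 difference was 0.80 ± 0.15 (SD, n = 3 transfections), with a 95% interval of 0.48 to 1.12 and an adjusted p of 0.11 in limma with Benjamini-Hochberg adjustment. As a difference of levels that of SQSTM1 was larger than that of OPTN, 79.9, 43.6 and 74.1 FPKM against 6.61, 11.4 and 10.3. Without siUXT PBS the difference was 0.85 with a limma adjusted p of 0.0023, and without siUXT TNF the limma adjusted p was 0.0037; in these fits 3.33% and 2.8% of loci were called, and 4.3% with both siUXT libraries left out. Over 15 alternatives the adjusted p of SQSTM1 ranged from 0.0011 to 1.00. The 3 past 0.05 each lacked a siUXT library and gave the same difference, 0.85, from the NC and siEZH1 pairs alone. A lone siUXT library adds nothing to the TNF difference, so these are not 3 separate checks. The value of SQSTM1 also has a limit of its own. C5orf45, a gene whose span overlaps SQSTM1 in RefSeq (there named MRNIP), was at 87.9, 71.4 and 120 FPKM under PBS in NC, siEZH1 and siUXT and at 188, 124 and 200.4 under TNF. Its level was 1.01 to 1.16 times that of SQSTM1 in every library, and of all loci tested it had the pattern nearest to SQSTM1. Without a stated strand setting, fragments of the 2 genes cannot be told apart here. MGAT4B, which also overlaps SQSTM1 in RefSeq, had a TNF difference of 0.12.

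The other receptors had small TNF differences. NBR1, which shares domains with p62, was at 15.5, 18.0 and 21.5 FPKM under PBS and 15.8, 17.2 and 17.8 under TNF in NC, siEZH1 and siUXT. CALCOCO2 (NDP52), a receptor for bacteria and mitochondria, was at 18.8, 24.4 and 20.0 FPKM under PBS and 19.0, 23.7 and 24.0 under TNF. Neither had a sign shared by all 3 pairs, and their mean log2 differences were -0.10 (95% interval -0.47 to 0.27) and 0.08 (-0.29 to 0.44). These intervals do not show that the genes were unaffected.

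Among the LC3 and GABARAP genes, GABARAPL1 was higher under TNF in every transfection. It was at 22.7, 25.6 and 28.3 FPKM under PBS and 29.2, 28.7 and 37.8 under TNF, with no overlap between the groups, although siEZH1 TNF and siUXT PBS were only a fraction of an FPKM apart. The mean log2 difference was 0.31 ± 0.13 (SD, n = 3 transfections), and it did not pass limma's test (Benjamini-Hochberg adjusted p = 0.999). MAP1LC3B, whose product is the usual marker of autophagosomes, had 31.4 FPKM under PBS and 31.7 under TNF in NC, and 37.3 and 36.9 in siEZH1. In siUXT it was at 28.2 FPKM under PBS and 43.7 under TNF, the lowest and the highest value of the gene. GABARAPL2, also called GATE-16, had the most uneven pattern, with 56.7 against 42.5 FPKM in NC, 51.7 against 55.8 in siEZH1 and 33.2 against 54.8 in siUXT for PBS against TNF. GABARAP had 207, 170.0 and 243 FPKM under PBS and 213, 198 and 206 under TNF in the same order of transfections. For MAP1LC3B, GABARAPL2 and GABARAP the SD over the 3 transfections (0.36, 0.56 and 0.23) was larger than the mean log2 difference (0.20, 0.13 and 0.0055).

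ULK1, the initiating kinase, was 1.26-fold higher under TNF in NC (7.24 to 9.14 FPKM) and in siEZH1 (6.61 to 8.33) and lower in siUXT (8.14 to 7.32), with a mean log2 difference of 0.15 ± 0.25 (SD, n = 3). WIPI1, a lipid-binding scaffold of the forming autophagosome, had TNF differences between -0.06 and 0.07 in the 3 pairs, the smallest spread of the 10 (SD 0.07); the sign of its mean, -0.0084, turned with median-of-ratios scaling.

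**Figure D2:**
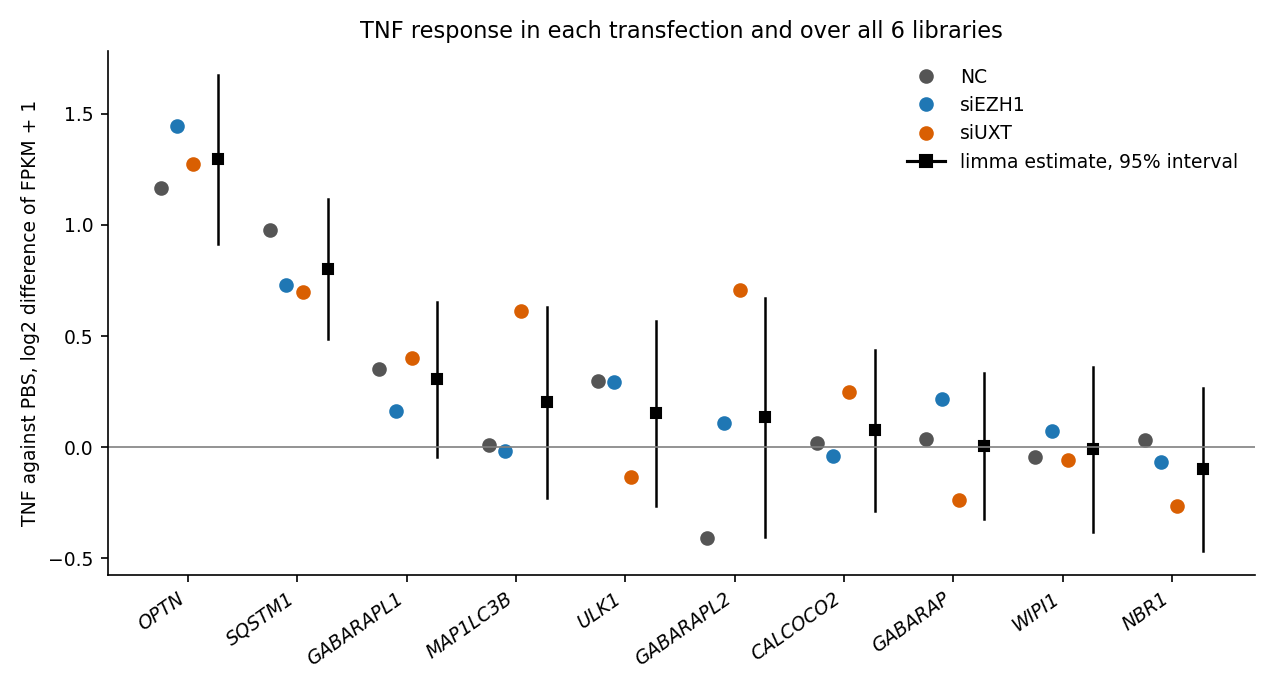
Difference between TNF and PBS on the log2(FPKM + 1) scale (vertical axis) for each gene; circles are single pairs of libraries in NC, siEZH1 and siUXT, and squares with bars are limma's estimate over 6 libraries with its 95% interval. The intervals of OPTN (0.92 to 1.68) and SQSTM1 (0.48 to 1.12) lie above 0, and those of the other 8 genes include it.

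As a group, OPTN, SQSTM1 and GABARAPL1, 3 of the 10, had a higher TNF library in each of the 3 pairs and none had a lower one in each, where 9.08% of all loci were higher and 11.1% lower. OPTN and GABARAPL1 were the 2 genes whose TNF libraries all lay above the PBS libraries, a pattern of 3.47% of all loci, and none of the 10 had them all below, as 3.04% of loci did. The median TNF difference of the 10 was 0.14, against 0.01 over all loci tested. Since the 10 were chosen with earlier results of these data known, these shares and medians do not test them as a group. By single pairs on the log2(FPKM + 1) scale, OPTN and SQSTM1 were at least 1.5-fold higher under TNF in NC and in siEZH1, where 3.4% and 3.22% of loci were. In siUXT they were joined by MAP1LC3B and GABARAPL2, but there 16.8% of all loci passed that fold, and these 2 genes had their lowest value in siUXT PBS. None of the 10 was 1.5-fold lower under TNF in any pair, against 1.98%, 1.35% and 3.61% of loci in NC, siEZH1 and siUXT.

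**Figure D3:**
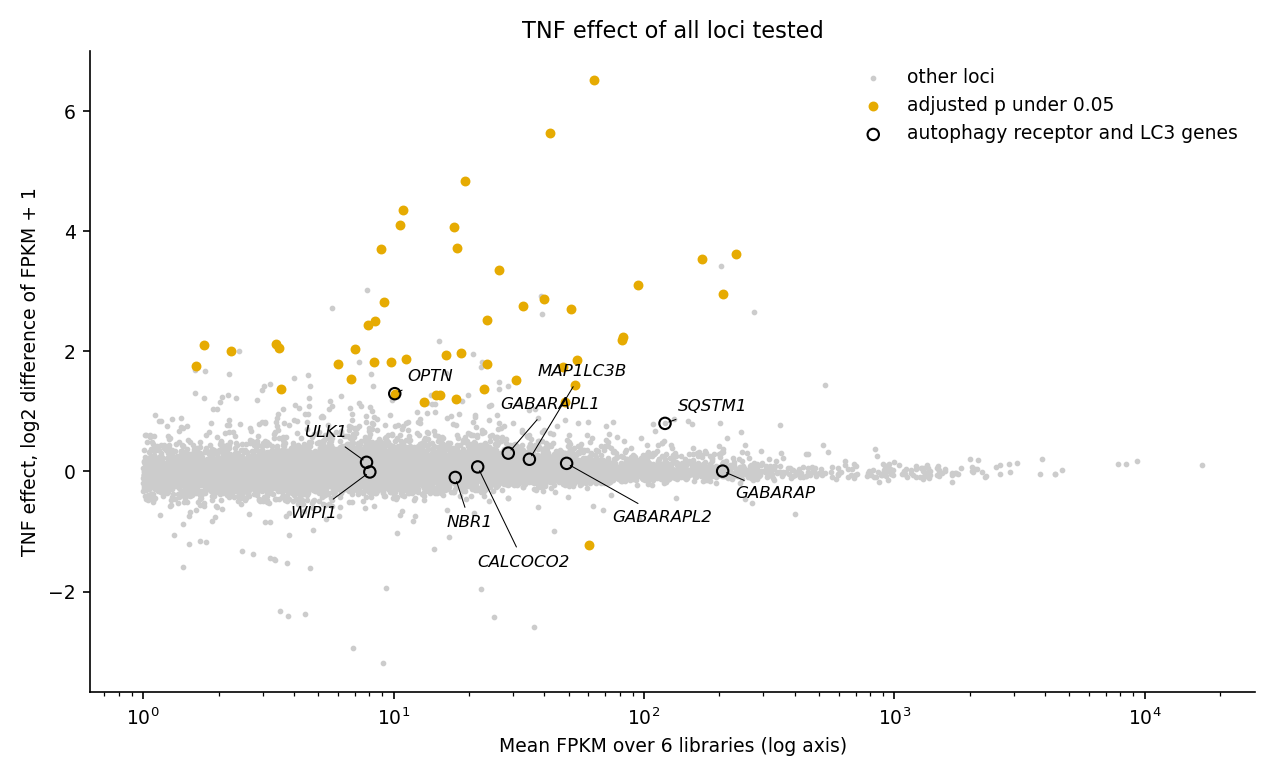
TNF effect on the log2(FPKM + 1) scale (vertical axis) against the mean FPKM over 6 libraries (horizontal log axis) for 11845 loci; grey points are loci not called, filled points those with an adjusted p under 0.05, and rings mark the 10 autophagy genes. OPTN sits at 1.30 at the lower edge of the called loci, SQSTM1 at 0.80 among loci not called, and the rest lie in the grey band.

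The pathway around these genes was read from 9 lists with 139 genes, of which 130 were tested; these lists were drawn up with earlier results of the data known. IKBKE, a kinase related to TBK1, which phosphorylates optineurin, was the only 1 of the 130 called for TNF by limma with Benjamini-Hochberg adjustment. Its PBS libraries were at 2.79, 2.31 and 3.96 FPKM in NC, siEZH1 and siUXT and its TNF libraries at 11.8, 9.23 and 10.6, which is a log2 rise of 1.54 (limma, Benjamini-Hochberg adjusted p = 0.028). At an unadjusted p under 0.05, reached by 3.96% of all loci, limma gave 7 of the 130, all with higher values under TNF: IKBKE, CYLD, TANK, TFE3, ATG16L2, NFE2L2 and ATG2A. TANK, an adaptor of TBK1, falls outside the rule for named genes and is given to complete that count. The median over the 130 was 0.03, and 15 were higher and 5 lower in all 3 pairs, as were 9.08% and 11.1% of all loci.

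The kinases and partners of the receptors held the largest differences, with 4 of 15 higher under TNF in all 3 pairs, where 9.08% of all loci were. CYLD, a deubiquitinase that optineurin brings to its targets, was at 1.91, 2.67 and 1.71 FPKM under PBS and 4.20, 4.92 and 5.04 under TNF in NC, siEZH1 and siUXT, a mean log2 difference of 0.89 (limma adjusted p = 0.20). TBK1 itself was at 10.7 and 10.1 FPKM in NC, 14.1 and 12.5 in siEZH1 and 4.31 and 10.8 in siUXT for PBS and TNF. Of the 17 other receptors none was higher or lower in all 3 pairs, against the same 9.08% and 11.1% of all loci. WDFY3, a scaffold for aggregates, had the mean farthest from 0 at -0.15 and BNIP3L, a mitochondrial receptor, the next at 0.13.

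In the remaining lists 0 loci were called for TNF by limma's adjusted test, and TFE3, ATG16L2, NFE2L2 and ATG2A are those with an unadjusted p under 0.05. Among 26 lysosome genes and their regulators TFE3, a transcription factor of lysosomal genes, was at 7.54, 5.88 and 8.68 FPKM under PBS and 12.1, 10.4 and 11.5 under TNF, and ATP6V1A, a proton pump subunit, had a difference of 0.23. In the NRF2 list, NFE2L2, which encodes NRF2 and shares its values with another symbol, had a difference of 0.47, and the cystine transporter gene SLC7A11 one of 0.30. Of the lipidation enzymes, ATG16L2 differed by 0.50 and ATG5, part of the complex that attaches LC3 to lipid, by 0.24. ATG2A, a lipid transfer protein, differed by 0.45 and WDR45B, a WIPI family member, by 0.14. The class III lipid kinase list was led by TMEM41B at 0.32 and ATG14 at 0.23, the fusion list by VPS11 at -0.21 and PLEKHM1 at 0.18, and the ULK1 regulators by DEPTOR, an mTOR inhibitor, at -0.32 and PRKAB1, a subunit of AMPK, at -0.27.

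**Figure D4:**
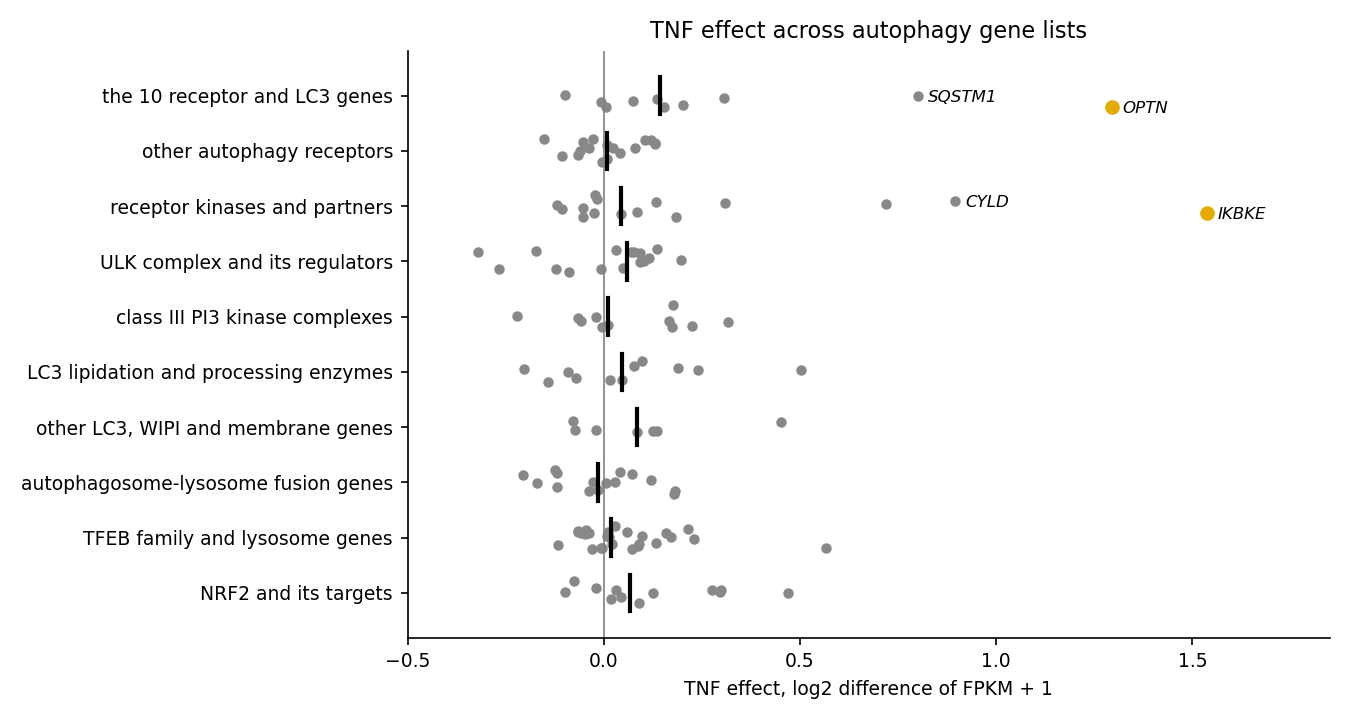
TNF effect on the log2(FPKM + 1) scale (horizontal axis) of each tested locus in the 10 genes (top row) and in 9 autophagy lists; vertical bars are list medians and the larger filled points are loci with an adjusted p under 0.05. OPTN and IKBKE are the 2 called loci, at 1.30 and 1.54, and the list medians lie between -0.01 and 0.14.

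After siEZH1, set against NC under the same treatment, 0 of the 10 genes were called by limma after adjustment, where 0.0169% of all loci were, and 1 (SQSTM1) had an unadjusted p under 0.05, as 8.21% of loci did. SQSTM1 was lower in both siEZH1 libraries, with 65.3 FPKM where NC PBS had 81.7, and 109 where NC TNF had 162, a mean log2 difference of -0.44 (95% interval -0.83 to -0.06; adjusted p = 0.60). OPTN was higher in both, 1.30-fold under PBS and 1.55-fold under TNF, with a mean of 0.45 (-0.01 to 0.92; adjusted p = 0.60). These 2 receptors, which both had higher values under TNF, thus lay on opposite sides of NC. CALCOCO2 was 1.30 times NC under PBS and 1.25 times under TNF. In all, 5 of the 10 were higher than NC under both treatments and 3 lower, against 40.7% and 37.7% of all loci, so agreement of sign alone was common. None of the 10 was at least 1.5-fold higher or lower under both treatments, as 0.464% and 2.38% of loci were. By single pairs, OPTN alone passed that fold, under TNF, where 3.71% of loci were higher and 6.05% lower; under PBS 2.13% were higher and 5.15% lower. Without siUXT PBS limma called OPTN, SQSTM1 and CALCOCO2 (adjusted p of 0.029, 0.011 and 0.026), but it then also called 27.7% of all loci, with 1 residual degree of freedom, and without siUXT TNF the same 3 with 26.2%, as it did with both left out and 29.5% called.

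The siUXT libraries had higher values of several of these genes, with 0 of 10 called by limma, against 0.0253% of all loci called higher, 0.0169% lower and 0.0422% in either direction. WIPI1, OPTN and SQSTM1 had an unadjusted p under 0.05, as 3.65% of loci did. WIPI1 differed most. It had 10.7 FPKM where NC PBS had 6.18, and 10.3 where NC TNF had 5.97, which is 1.74 and 1.72 times NC. Both siUXT libraries lay above the other 4, a pattern whose share over all loci was not counted. The mean log2 difference was 0.70 (95% interval 0.25 to 1.15; limma, Benjamini-Hochberg adjusted p = 0.91), and WIPI1 was the only 1 of the 10 at least 1.5-fold higher under both treatments, as were 0.346% of all loci; none was as far lower under both, against 0.279%. In single pairs, also on the log2(FPKM + 1) scale, WIPI1 alone passed that fold upward, under PBS (4.11% of loci higher) and under TNF (3.12%), while GABARAPL2 was that much lower under PBS (16.4%). With siUXT PBS left out, the difference was 0.66 (limma adjusted p = 0.062). Its neighbours do not share the pattern: among the genes whose spans overlap WIPI1, ARSG had 3.67 FPKM in NC PBS and 3.68 in siUXT PBS, and PRKAR1A had 97.1 and 80.1.

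OPTN was 1.45 and 1.52 times NC under PBS and TNF in siUXT, and SQSTM1 1.45 and 1.19 times. Their mean log2 differences were 0.51 (95% interval 0.04 to 0.97) and 0.39 (0.0027 to 0.78), each with a limma adjusted p of 0.91. Without siUXT PBS they were 0.49 and 0.31 (limma adjusted p = 0.12 and 0.14). NBR1 was at 1.39 and 1.12 times NC and GABARAPL1 at 1.25 and 1.29 times. With CALCOCO2 and WIPI1, these made 6 of 10 genes that were higher than NC under both treatments, and none was lower under both, against 22.8% and 17.1% of all loci. All 4 receptors were among the 6. Of the 17 other receptors tested, 0 were higher than NC under both treatments and 2 were lower, with a median log2 difference of -0.02. Without siUXT PBS the mean log2 difference moved from 0.30 to 0.18 for NBR1, from 0.20 to 0.33 for CALCOCO2 and from 0.33 to 0.41 for GABARAPL1. The siEZH1 and siUXT comparisons use the same NC libraries. For OPTN, the NC library was the lowest of its treatment under both PBS and TNF.

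GABARAPL2 and MAP1LC3B were below NC under PBS and above it under TNF in the siUXT libraries. GABARAPL2 was at 0.585 of NC under PBS and 1.29 times NC under TNF, and MAP1LC3B at 0.896 and 1.38 times. ULK1 and GABARAP did the reverse, ULK1 at 1.12 and 0.801 times NC and GABARAP at 1.17 and 0.970 times. Only 22.8% of all loci were higher than NC under both treatments and 17.1% lower, so a turn of sign was common. Without siUXT PBS the mean log2 difference moved from -0.20 to 0.23 for GABARAPL2, from 0.15 to 0.46 for MAP1LC3B, from -0.07 to -0.28 for ULK1 and from 0.09 to -0.088 for GABARAP. With siUXT TNF left out, limma called OPTN, SQSTM1, NBR1, GABARAPL2 and WIPI1 for siUXT, from siUXT PBS alone and among 30.5% of all loci; without siUXT PBS it called none of the 10 and 2.53% of all loci.

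**Figure D5:**
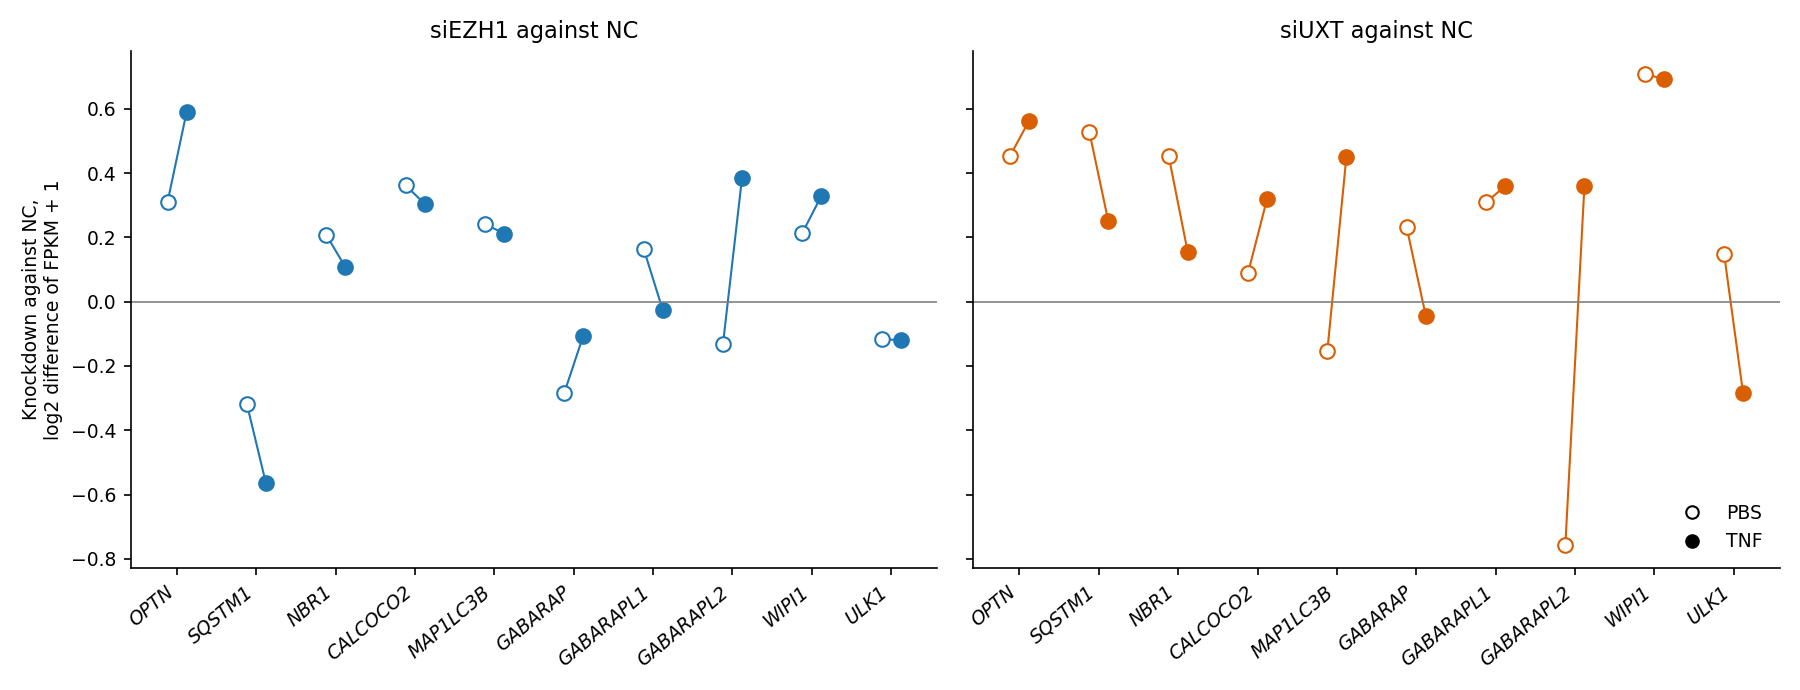
Difference from NC under the same treatment on the log2(FPKM + 1) scale (vertical axis) for siEZH1 (left) and siUXT (right); open circles are the PBS pair, filled circles the TNF pair, 1 library each. WIPI1 lies at 0.71 and 0.69 in siUXT, SQSTM1 at -0.32 and -0.57 in siEZH1, and GABARAPL2 crosses from -0.76 to 0.36 in siUXT.

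In the 9 lists, 0 of 130 loci were called by limma for either knockdown; 11 had an unadjusted p under 0.05 for siEZH1 and 1 (RTN3) for siUXT, where 8.21% and 3.65% of all loci did. Only the locus farthest from NC in each list is named for each knockdown, and others in a list can lie farther out than those named for another list. In siEZH1 these were OSGIN1, an NRF2 target, at a mean log2 difference of -0.91, MLST8, a subunit of mTOR complexes, at -0.82, ATG2A at -0.69, the lysosomal protease gene CTSD at -0.62, the LC3 protease gene ATG4D at -0.57 and MYO6, a motor that binds optineurin, at 0.54. The other 3 lists gave SH3GLB1 at 0.48, BNIP3L at 0.47 and TECPR1 at -0.37. In siUXT the farthest of each list were ATG4C at -0.70, SLC7A11 at -0.59, LAMP2 at -0.56, TBK1 at -0.53, PRKAA1 at -0.46, RTN3 at -0.41, VPS11 at 0.36, ATG2A at -0.32 and BECN1 at 0.25. ATG4C, SLC7A11, LAMP2, TBK1 and PRKAA1 were between -1.47 and -1.04 from NC under PBS but between -0.09 and 0.14 under TNF, so their means come from siUXT PBS. RTN3 was lower than NC in both, by -0.50 and -0.32.

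Likeness of pattern was measured as the root mean square distance of log2(FPKM + 1), centred on each locus, over the 6 libraries, among 10058 single-symbol protein-coding loci. Nearest to OPTN were TRIML2 (distance 0.16), CXCR4 (0.23), CCRN4L (0.23), IFIH1 (0.24) and HIVEP2 (0.26), with Pearson correlations of 0.939 to 0.974 over 6 libraries that all share. CCRN4L passed limma's adjusted test for TNF (adjusted p = 0.044) and the other 4 did not. TRIML2 was at 7.73, 6.46 and 8.91 FPKM under PBS and 14.4, 24.0 and 23.1 under TNF in NC, siEZH1 and siUXT, like OPTN lowest in NC among the TNF libraries. CXCR4, a chemokine receptor gene, went from 1.57, 2.13 and 2.54 to 7.16, 8.36 and 6.09 FPKM. Nearest to SQSTM1 among those loci were EPHA2, a receptor tyrosine kinase gene (0.12), TNIP1, a partner of the NF-kB inhibitor A20 (0.14), and PISD (0.14). TNIP1 was at 20.4, 17.1 and 27.6 FPKM under PBS and 36.7, 32.7 and 45.7 under TNF, with the same order of the transfections as SQSTM1. Among the nearest to GABARAPL2 were ME2 (0.06) and DHX29 (0.07), both lowest in siUXT PBS.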

How the data were processed

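The deposited tables give FPKM per gene symbol for 6 RNA-seq libraries of poly(A) RNA, 1 per condition, made by the authors. Per the submitters' processing notes, FastQC, cutadapt, TopHat2, Bowtie and SICER were among the tools and hg19 was the build; the program that made the FPKM values, its annotation and its strand setting were not stated. No depth is given, so no counting interval is printed. Symbols that share every value over the 6 libraries were treated as 1 locus (17642 loci above 0), and those averaging 1 FPKM or more were analysed as log2(FPKM + 1). The test was limma 3.58.1 in R 4.3.3 (lmFit, eBayes with trend), with transfection and treatment as additive terms and 2 residual degrees of freedom. Benjamini-Hochberg adjustment ran over 11845 loci at 0.05. The test was also run on simulated data with independent noise. These data held no transfection differences and no library that stood apart as siUXT PBS did, so that case was not covered. For TNF, the error of the test joins the spread of a gene's response between transfections with a spread estimated from all loci tested. The latter had the weight of 4.42 prior degrees of freedom, against the 2 residual ones. This error may leave out the spread between repeated cultures. Single pairs have no test. Depth was compared from steps among values under 0.4 FPKM with a tolerance of 2%. RefSeq tables (GRCh38.p14) gave gene types, overlaps and promoters. Python 3.11.15 with pandas 2.3.3 and matplotlib 3.10.9 did the rest. From lists without members, the text names called loci, the 2 largest TNF differences and the largest difference for each knockdown; likeness names 5 loci for OPTN and 3 for each of the 2 other most variable members, of which 1 is not reported here. The members and lists were chosen with earlier results of these data known.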

Additional observations from a re-analysis of the deposited data

Results flagged for a closer look

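GABARAPL2 met the condition that a difference goes one way in 1 group and the opposite way in another, each by at least 1.2-fold, a size chosen after the data were seen. Its TNF difference was -0.41 on the log2(FPKM + 1) scale in NC and 0.71 in siUXT, so that siUXT lay 1.12 above NC. The same 4 libraries give the siUXT difference from NC, which was -0.76 under PBS and 0.36 under TNF and so moved by the same 1.12. The difference was not tested, since each value rests on 1 pair of libraries. One of these libraries is siUXT PBS, in which 16.4% of loci were at least 1.5-fold below NC PBS. The NC difference of -0.41 and the siUXT difference from NC under TNF of 0.36 do not use it. Both use NC TNF, at 42.5 FPKM the lowest TNF library for this gene, so they are not independent. The siEZH1 TNF library also lay above NC TNF, by 0.38.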

How the results depend on the processing

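The rise of OPTN under TNF kept its direction in 15 alternatives, with values of 1.22 to 1.43, and was past limma's threshold in 12. It was 1.30 but not past it with no filter on low values and with treatment alone, and 1.22 to 1.36 when single libraries were left out. Members called for TNF were then 0 with no filter and with treatment alone, 2 without the siUXT pair, and 0 to 2 with single libraries left out; for siEZH1 they were 3 without the siUXT pair and 0 to 3, and for siUXT 0 to 5. Loci called for TNF were 49, against 23 with no filter, 129 without the siEZH1 pair, 508 without the siUXT pair and 124 to 394 with single libraries left out. For siEZH1 they were 2, against 1 with a mean of at least 5 FPKM, 3486 without the siUXT pair and 41 to 3274. For siUXT they were 5, against 1 with a mean of at least 5 FPKM, 0 with a pseudocount of 0.1, 64 without the siEZH1 pair and 44 to 3613. Why calls rose without a library was not tested; these fits have fewer residual degrees of freedom, and a lone library is assumed to vary like the others. Signs turned only for differences not called in the fit of all 6 libraries. Without the siUXT pair the TNF difference was -0.011 for CALCOCO2, -0.15 for GABARAPL2, -0.0033 for MAP1LC3B and 0.016 for WIPI1; without the siEZH1 pair it was -0.10 for GABARAP, and with size factors 0.0073 for WIPI1. With single libraries left out the TNF ranges were -0.011 to 0.13 (CALCOCO2), -0.10 to 0.13 (GABARAP), -0.15 to 0.41 (GABARAPL2), -0.0033 to 0.31 (MAP1LC3B) and -0.049 to 0.016 (WIPI1). The siEZH1 ranges were -0.038 to 0.18 (GABARAPL1) and -0.28 to 0.53 (GABARAPL2), and the siUXT ranges -0.088 to 0.28 (GABARAP), -0.63 to 0.23 (GABARAPL2), -0.16 to 0.46 (MAP1LC3B) and -0.28 to 0.15 (ULK1). The TNF test is itself paired, PBS with TNF, by the transfection terms; the labels carry no replicate numbers for a further block. All listed alternatives were run. Leaving out either library of a transfection gave the same TNF difference, so these alternatives were not all separate checks.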
